A study of Mus musculus with 8 samples.

Results

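White adipocyte depot markers other than leptin, retinoid and Hox genes were examined in brown adipose tissue (BAT), the thermogenic fat depot, of WT and Cd36KO mice. The 7 genes were Nnat, Sfrp5, Npr3, Slc7a10, Sncg, Tcf21 and Agt, taken by symbol from a table of 31053 genes, of which 17367 had any count. Bulk RNA-seq libraries from 4 WT and 4 Cd36KO mice were available, all of strain C57BL6/J and with a labelled age of 8 weeks. CD36, which macrophages and adipocytes carry, is a receptor that takes up lipids, and the comparison asked how its loss changed the BAT transcriptome. The methods give a later age than the labels for the macrophage-restricted knockouts. The labels give the genotype only as WT or Cd36KO. The study attributes its BAT transcriptome to mice with floxed CD36 alleles and a Csf1r-driven Cre, which acts in myeloid cells, and it also used germline knockouts. Whether the WT mice carried the floxed alleles or the Cre is not given in the sources used here.

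White and brown adipocytes store lipid and share most of their differentiation program, but white depots express a set of genes that brown fat expresses little of. The markers followed here have unrelated jobs, from a hormone precursor and a Wnt antagonist to a clearance receptor, an amino acid transporter, a pair of small intracellular proteins and a transcription factor. Their levels in a piece of BAT depend on which cells are in the piece as well as on what each cell transcribes. In bulk tissue, fewer cells of a type and less RNA per cell cannot be told apart.

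Nnat, Sncg, Agt and Npr3 were lower in Cd36KO than in WT BAT, that is, 4 of the 7 white depot markers passed the DESeq2 threshold (adjusted p under 0.05 over all genes) and 0 were higher. Of all 9619 genes with an adjusted p, 1.53% passed in that direction. Slc7a10 had a log2 fold change of -1.62 and did not pass, Sfrp5 was too low to receive an adjusted p, and Tcf21 had no counts. The median log2 fold change of the 6 genes with counts was -2.10, against -0.01 over all genes with an adjusted p. The edgeR quasi-likelihood test called 1 of the 7, Nnat, where 0.102% of 9793 genes were called lower. With limma on the authors' log2 values 0 of the 7 were called, where 2 of 13990 genes were called lower. In that fit 5 of the 7 had an unadjusted p under 0.05, as did 1848 of all 13990 genes.

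A library-by-library reading showed a second feature. Nnat, Npr3, Slc7a10, Sncg and Agt were each high in WT replicates 2, 3 and 4 and low in every Cd36KO library, while WT replicate 1 lay inside the Cd36KO range. Among the 9834 genes with 10 or more normalized counts on average, 246, or 2.5%, had this order. The markers were listed with the low white fat signal of 1 WT library already known, so this is a description of that library. The values of each gene follow, as counts divided by the DESeq2 size factor of the library (normalized counts). They compare libraries for a single gene and are not scaled to transcript length.

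**Figure D1:**
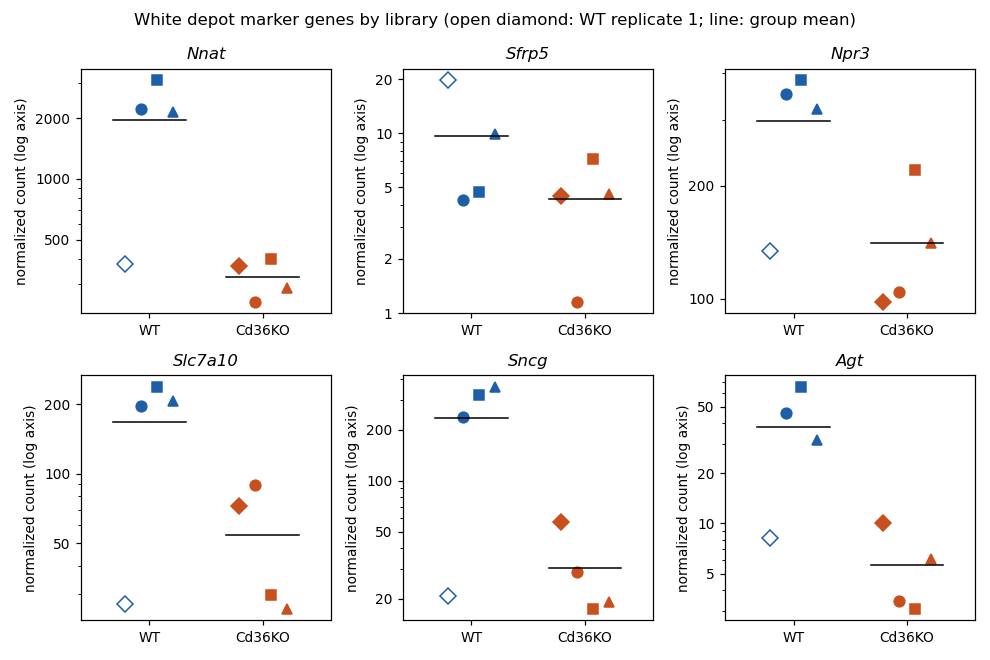
Normalized counts of the 6 white depot markers with counts, 1 panel per gene on a logarithmic axis, with WT libraries in blue, Cd36KO libraries in orange and a line at each group mean (open diamond, WT replicate 1; filled diamond, the unnumbered Cd36KO library; circle, square and triangle, replicates 2, 3 and 4). In Nnat, Npr3, Slc7a10, Sncg and Agt the WT circle, square and triangle sit above every Cd36KO library and the open diamond sits among the Cd36KO libraries, whereas in Sfrp5 the open diamond is highest.

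Several facts of the libraries bear on these values. Total counts ranged from 2679785 to 4097953 per library, and 13368 to 14698 genes were detected. The share of counts from the mitochondrial genome was lowest in WT replicate 1, at 23.4%, against 27.7% to 32.1% in the other 7 libraries, and its part in the values of that library was not tested. Cd36 itself had 2412 to 3505 normalized counts in WT and 1926 to 2384 in Cd36KO, so the transcript remained in every Cd36KO library (log2 fold change -0.48, DESeq2 adjusted p = 0.0602). The labels call the cell type stromal vascular fraction, yet general adipocyte markers summed to 35540 to 66432 normalized counts, against 20.8 to 51 for Ptprc, the pan-leukocyte gene. The methods describe male mice, but Xist had 772 to 1588 counts and the Y-linked genes examined had 3 in WT replicate 1 and 0 elsewhere. The count column of a single Cd36KO library carries no number and is referred to below as unnumbered. Nothing in the labels says which libraries shared a litter or cage, and the p-values measure the spread between these libraries.

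Agt encodes angiotensinogen, the secreted precursor that renin cuts in the first step of angiotensin production, and adipose tissue is a known source outside the liver. It lies on chromosome 8 from 124556534 to 124569706 on the minus strand (ENSMUSG00000031980, GRCm38, protein-coding). The 250 bases before its RefSeq start (chr8:124569707-124569956, minus strand, GRCm38.p6) are printed because this gene moved together with the others and its start is the same in RefSeq and GENCODE. Capitals mark a TATA box, TATAAA, at positions -30 to -25 from the start, and an E-box, CANNTG, at -188 to -183.
Agt: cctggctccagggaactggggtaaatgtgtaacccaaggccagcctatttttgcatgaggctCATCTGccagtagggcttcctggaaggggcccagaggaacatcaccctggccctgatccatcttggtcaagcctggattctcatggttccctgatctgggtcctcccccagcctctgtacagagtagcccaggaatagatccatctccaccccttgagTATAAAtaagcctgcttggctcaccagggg
WT replicates 1 to 4 had 8.12, 45.9, 65.9 and 31.7 normalized counts. The unnumbered Cd36KO library had 10 and Cd36KO replicates 2, 3 and 4 had 3.45, 3.07 and 6.1. WT replicate 1 thus lay below the highest Cd36KO library, and the other 3 WT libraries were at least 3.16 times that library. These rest on few reads, from 3 to 9 raw counts in the Cd36KO libraries and WT replicate 1 and from 32 to 56 in the other WT libraries. WT averaged 37.9 ± 24.3 and Cd36KO 5.66 ± 3.21 (SD, n = 4 each). The log2 fold change was -2.74 (standard error 0.62, DESeq2 adjusted p = 0.0022), and an exact two-sided permutation test of the 4 against 4 libraries gave p = 0.0571, where the smallest possible value is 0.0286. Agt was too low for the edgeR filter.

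Sfrp5 encodes a secreted frizzled-related protein that binds Wnt ligands outside the cell, and it is made by white adipocytes. It lies on chromosome 19 from 42197971 to 42202252 on the minus strand (ENSMUSG00000018822, protein-coding). WT replicates 1 to 4 had 19.9, 4.25, 4.7 and 9.89 normalized counts. The Cd36KO libraries had 4.46 in the unnumbered library and 1.15, 7.16 and 4.58 in replicates 2, 3 and 4. The order differed from that of Agt, because WT replicate 1 was the highest library rather than inside the Cd36KO range, and the other WT libraries overlapped Cd36KO. WT replicate 1 held 22 raw counts (95% Poisson interval 13.8 to 33.3, counting error only), and the other 7 libraries held 1 to 10. The log2 fold change was -1.15 with a 95% interval from -2.63 to 0.33 (exact two-sided permutation p = 0.229), and without WT replicate 1 it was -0.52 (standard error 0.87). The interval holds 0, so neither a lower nor an equal level in Cd36KO was shown.

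Npr3 encodes the natriuretic peptide clearance receptor, which binds natriuretic peptides and removes them rather than signalling through cyclic GMP, and it is more abundant in white than in brown fat. It lies on chromosome 15 from 11839896 to 11907287 on the minus strand (ENSMUSG00000022206, protein-coding). WT replicates 1 to 4 had 134, 351, 383 and 321 normalized counts. The unnumbered Cd36KO library had 98, and Cd36KO replicates 2, 3 and 4 had 104, 220 and 141. WT replicate 1 lay between Cd36KO replicates 2 and 4, and the other WT libraries lay above all Cd36KO libraries. The group means were 297 ± 112 and 141 ± 56.2 (SD, n = 4 each). This gave a log2 fold change of -1.08 (standard error 0.33, DESeq2 adjusted p = 0.042; exact two-sided permutation p = 0.0857). The call was close to the threshold. It was lost without WT replicate 2 (DESeq2 adjusted p = 0.124), WT replicate 3 (0.206), the unnumbered Cd36KO library (0.18), Cd36KO replicate 2 (0.0765) or Cd36KO replicate 4 (0.0926), and the edgeR adjusted p was 0.14.

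Slc7a10 encodes Asc-1, a plasma membrane exchanger of small neutral amino acids that is used as a surface marker of white adipocytes. It lies on chromosome 7 from 35186385 to 35201114 on the plus strand (ENSMUSG00000030495, protein-coding). The 250 bases before its RefSeq start (chr7:35186135-35186384, plus strand, GRCm38.p6) are shown for the same reason as those of Agt, with capitals on the GC boxes, GGGCGG on either strand, at positions -119 to -114 and -62 to -57 from the start.
Slc7a10: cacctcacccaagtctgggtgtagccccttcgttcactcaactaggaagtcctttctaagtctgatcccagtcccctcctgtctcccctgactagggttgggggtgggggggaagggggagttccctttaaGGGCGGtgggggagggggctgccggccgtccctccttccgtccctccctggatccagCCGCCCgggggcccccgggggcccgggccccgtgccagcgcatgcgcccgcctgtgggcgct
WT replicates 1 to 4 had 27.1, 196, 239 and 207 normalized counts. The unnumbered Cd36KO library had 72.4, and Cd36KO replicates 2, 3 and 4 had 89.8, 29.7 and 25.9. WT replicate 1 was the second lowest of the 8 libraries, and the Cd36KO libraries themselves fell into a higher and a lower pair. WT averaged 167 ± 95.1 and Cd36KO 54.4 ± 31.6 (SD, n = 4 each). With all 8 libraries the log2 fold change of -1.62 (standard error 0.72, 95% interval -3.04 to -0.21) did not pass the DESeq2 threshold (adjusted p = 0.228; exact two-sided permutation p = 0.171). Without WT replicate 1, a library left out with its low values known, it was -1.99 (standard error 0.34) and passed, which is no independent evidence. Leaving out any other library gave DESeq2 adjusted p-values from 0.112 to 0.543.

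Nnat encodes neuronatin, a small membrane protein of the endoplasmic reticulum that interacts with the calcium pump SERCA, and it is imprinted and expressed from the paternal allele. The gene lies on chromosome 2 from 157560078 to 157562522 on the plus strand (ENSMUSG00000067786, protein-coding), inside Blcap, which lies on the opposite strand. The 250 bases before its RefSeq start (chr2:157559828-157560077, plus strand, GRCm38.p6) follow, in lower case throughout because none of the 7 motifs searched was found there.
Nnat: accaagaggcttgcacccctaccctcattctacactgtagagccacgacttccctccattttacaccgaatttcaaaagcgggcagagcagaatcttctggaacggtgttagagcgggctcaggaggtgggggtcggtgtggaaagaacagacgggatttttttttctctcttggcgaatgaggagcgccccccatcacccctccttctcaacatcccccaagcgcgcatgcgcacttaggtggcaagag
WT replicates 1 to 4 had 377, 2220, 3105 and 2144 normalized counts. The unnumbered Cd36KO library had 370, and Cd36KO replicates 2, 3 and 4 had 245, 403 and 289. WT replicate 1 lay between the 2 highest Cd36KO libraries, and the lowest of the other WT libraries was 5.32 times the highest Cd36KO library. The means were 1962 ± 1143 and 327 ± 72.5 (SD, n = 4 each). The log2 fold change was -2.59 (standard error 0.59, DESeq2 adjusted p = 0.00228, edgeR adjusted p = 0.0491; exact two-sided permutation p = 0.0571). Nnat passed the DESeq2 threshold whichever of the 8 libraries was left out, but not with limma on the authors' log2 values (-2.26, adjusted p = 0.105).

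Sncg encodes gamma-synuclein, a small cytosolic protein of neurons that is also abundant in white adipocytes. It lies on chromosome 14 from 34370274 to 34374789 on the minus strand (ENSMUSG00000023064, protein-coding). WT replicates 1 to 4 had 20.8, 238, 320 and 360 normalized counts. The unnumbered Cd36KO library had 56.8, and Cd36KO replicates 2, 3 and 4 had 28.8, 17.4 and 19.1. WT replicate 1 was lower than 2 of the 4 Cd36KO libraries, while the other WT libraries were at least 4.19 times the highest of them. The means were 235 ± 151 and 30.5 ± 18.2 (SD, n = 4 each). The log2 fold change was -2.95 (standard error 0.82, DESeq2 adjusted p = 0.0217; exact two-sided permutation p = 0.0857). The edgeR adjusted p was 0.0895. The DESeq2 call was lost without WT replicate 2 (adjusted p = 0.0756), WT replicate 3 (0.127), Cd36KO replicate 3 (0.0754) or Cd36KO replicate 4 (0.0825).

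Tcf21 encodes a basic helix-loop-helix factor of white preadipocytes and other mesenchymal cells. It lies on chromosome 10 from 22817281 to 22820174 on the minus strand (ENSMUSG00000045680, protein-coding) and had 0 counts in all 8 libraries. A count of 0 allows up to 3 counts, which corresponds to 2.29 to 3.53 normalized counts, or 0.732 to 1.12 CPM, depending on the library. No comparison of Tcf21 between the groups could be made.

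The distance of WT replicate 1 from the other WT libraries was as large as that of the Cd36KO libraries in some of these genes and not in others. On the scale of log2 of the normalized count + 1, the difference of WT replicate 1 from the mean of WT replicates 2 to 4 was -1.39 for Npr3, and that of the Cd36KO mean was also -1.39. The corresponding differences were -2.70 and -2.93 for Nnat, -2.36 and -2.93 for Agt, -3.80 and -3.42 for Sncg, and -2.93 and -2.14 for Slc7a10. WT replicates 2, 3 and 4 differed little from each other by comparison, with an SD on that scale from 0.13 for Npr3 to 0.52 for Agt. Sfrp5 went the other way in WT replicate 1, at 19.9 normalized counts against 6.28 ± 3.14 in WT replicates 2 to 4 (SD, n = 3).

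WT replicate 1 was left out with its low white fat signal known, so the values without it describe the remaining 7 libraries and are no further evidence of a difference. Without WT replicate 1, 5 of the 7 genes passed the DESeq2 threshold, all lower in Cd36KO, where 2.29% of 10284 genes were called lower. The log2 fold changes were then -2.93 for Nnat (standard error 0.20), -1.32 for Npr3 (0.26), -1.99 for Slc7a10 (0.34), -3.35 for Sncg (0.32) and -3.07 for Agt (0.52). Leaving this library out narrowed the standard error of each of these genes, for example from 0.59 to 0.20 for Nnat and from 0.82 to 0.32 for Sncg. The other fits with a single library removed are given with the share of all tested genes called lower. Of the 7 genes, 1 was called without WT replicate 2 (0.741% of all genes), 2 without WT replicate 3 (0.836%) and 3 without WT replicate 4 (2.94%). On the Cd36KO side, 3 were called without the unnumbered library (0.913%), 2 without replicate 2 (2.23%), 2 without replicate 3 (1.32%) and 1 without replicate 4 (1.2%). Agt had no adjusted p in 5 of these fits.

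**Figure D2:**
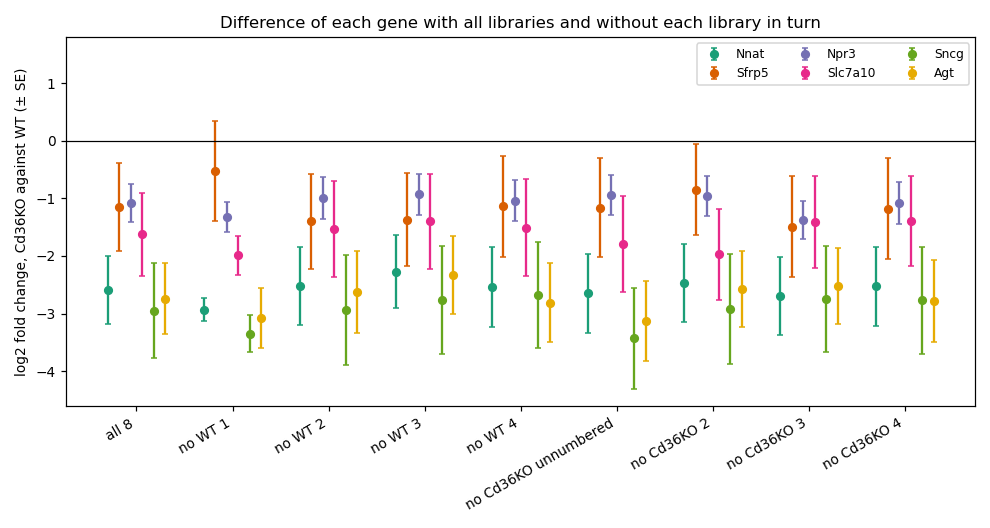
Log2 fold change (Cd36KO against WT, points) of the 6 white depot markers with counts, with bars of 1 standard error, in the fit of all 8 libraries and in the 8 fits with a single library removed. The estimates stay below 0 in every fit, and the standard errors of Nnat, Slc7a10 and Sncg are smallest without WT replicate 1.

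The markers were then read beside other genes of their pathways. Among 12 renin-angiotensin genes, 8 had counts, 5 had an adjusted p and 1 passed, Enpep, the aminopeptidase that converts angiotensin II to angiotensin III. Enpep had 19, 40.8, 38.8 and 21.8 normalized counts in WT replicates 1 to 4, and 5.57 in the unnumbered Cd36KO library and 16.1, 9.21 and 9.91 in Cd36KO replicates 2 to 4. All WT libraries thus lay above all Cd36KO libraries, WT replicate 1 included. The same held in 385 of the 9834 genes with 10 or more normalized counts on average. Enpep had a log2 fold change of -1.56 (standard error 0.46, DESeq2 adjusted p = 0.034), where 1.53% of all tested genes were called lower. Its call was lost without WT replicate 3 (DESeq2 adjusted p = 0.199) or the unnumbered Cd36KO library (0.178), and Enpep had no adjusted p without WT replicates 2 or 4 or Cd36KO replicates 2, 3 or 4. Without WT replicate 4, Atp6ap2, the prorenin receptor gene, was called higher (log2 fold change 0.76, DESeq2 adjusted p = 0.042). Ren1, Agtr1b, Agtr2 and Mas1 had 0 counts in all libraries. The type 1 angiotensin receptor Agtr1a had a log2 fold change of -0.15 (DESeq2 adjusted p = 0.937) and the receptor-associated protein Agtrap 0.57 (0.208).

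Natriuretic peptide genes other than Npr3 gave 0 calls among the 4 of 11 with an adjusted p in DESeq2 and in edgeR. Furin, a convertase that processes natriuretic peptide precursors, had a log2 fold change of 0.55 (DESeq2 adjusted p = 0.139) and was called higher without WT replicate 4 (0.64, adjusted p = 0.0383) or Cd36KO replicate 2 (0.69, adjusted p = 0.0163). The guanylyl cyclase receptors, which compete with Npr3 for the same peptides, had log2 fold changes of 0.48 for Npr1 (DESeq2 adjusted p = 0.386) and -0.27 for Npr2 (0.773). The peptide genes Nppa, Nppb and Nppc and the protease gene Corin had 0 counts in all libraries.

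Of 9 secreted Wnt inhibitors other than Sfrp5, 6 had counts and 1 had enough for an adjusted p, and it was not called. Among 20 Wnt ligands and receptors, 7 had an adjusted p and 1 was called, the receptor gene Fzd4. Fzd4 had 483, 635, 742 and 552 normalized counts in WT replicates 1 to 4, and 283 in the unnumbered Cd36KO library and 377, 399 and 464 in Cd36KO replicates 2 to 4. The groups did not overlap, with WT higher, as in 385 of the 9834 genes with 10 or more normalized counts on average. WT replicate 1 was the lowest WT library. Fzd4 had a log2 fold change of -0.66 (standard error 0.20, DESeq2 adjusted p = 0.0387), where 1.53% of all tested genes were called lower. Its call was lost without WT replicate 2 (DESeq2 adjusted p = 0.121), WT replicate 3 (0.224), the unnumbered Cd36KO library (0.187), Cd36KO replicate 2 (0.0599) or Cd36KO replicate 3 (0.0792).

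Of 18 further amino acid transporter genes, 9 had an adjusted p and 0 were called by DESeq2 or edgeR. Without WT replicate 1, Slc1a5 was called lower and Slc36a2 higher. Slc3a2, the heavy chain with which Asc-1 and several related transporters pair, had a log2 fold change of 0.11 (DESeq2 adjusted p = 0.899). Synuclein family and partner genes gave 0 calls among the 2 of 5 with an adjusted p, also without WT replicate 1.

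The calcium pump genes, whose products neuronatin acts on, and Blcap, which contains Nnat, gave 0 calls among 4 in DESeq2 and in edgeR. The pump gene of skeletal muscle, Atp2a1, reached 4384 normalized counts in WT replicate 1, more than in any other library, and had a log2 fold change of -3.17 (DESeq2 adjusted p = 0.236), which passed without the unnumbered Cd36KO library (-4.94, adjusted p = 0.047). Atp2a2 and Atp2a3 had log2 fold changes of -0.35 (0.608) and -0.18 (0.883).

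Partners of Tcf21 and other depot transcription factors gave 1 call among the 11 of 16 with an adjusted p, where 1.53% of all tested genes were called lower. The gene called was Tbx15, a T-box factor whose expression varies between fat depots. Tbx15 had 39.7, 32.3, 25.9 and 22.8 normalized counts in WT replicates 1 to 4, and 5.57 in the unnumbered Cd36KO library and 4.6, 7.16 and 6.1 in Cd36KO replicates 2 to 4. WT replicate 1 was the highest library for Tbx15, in contrast to its place among the Cd36KO libraries for Nnat, Npr3, Slc7a10, Sncg and Agt. The log2 fold change was -2.36 (standard error 0.47, DESeq2 adjusted p = 0.000236, edgeR adjusted p = 0.0394). Tbx15 passed in each of the 3 fits without a single library that gave it an adjusted p. It had none without WT replicates 2 or 4 or Cd36KO replicates 2, 3 or 4, or with the muscle markers as a covariate. The call was lost with limma on the authors' log2 values (adjusted p = 0.0504). It was also lost in a DESeq2 fit blocked by replicate number (adjusted p = 0.113). The mesothelial factors Wt1 and Bnc1 had 0 counts in all libraries.

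Marker lists of the cells that the tissue could hold were summed in each library. General adipocyte markers gave 0 calls among 9 by DESeq2 with all libraries. Without WT replicate 1 there were 4 calls, all lower, namely Adipoq, Fabp4, Cidec and Lpl, where 2.29% of all tested genes were called lower. The sum of the 9 ranged from 35540 to 66432 normalized counts in WT and from 39652 to 42877 in Cd36KO, with WT replicate 1 lowest of all. Adipoq, the adiponectin gene, had 2458, 5212, 6294 and 5630 normalized counts in WT replicates 1 to 4 and from 3904 to 4400 in Cd36KO. The 12 other white fat markers, leptin and Hox genes among them, summed to 755 in WT replicate 1 and to at most 3255 in WT, and to 519 to 1097 in Cd36KO. Of these 12, 5 of the 7 with an adjusted p were called, all lower, against 1.53% of all tested genes, and 6 of 7 without WT replicate 1, against 2.29%.

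The place of WT replicate 1 varied among those other white fat markers. Lep had 35.2 normalized counts in WT replicate 1, against 11.5 to 28.2 in Cd36KO and 118 to 150 in the other WT libraries. Hoxc8 had 81.2 there, against 7.16 to 42.3 in Cd36KO, and Nrip1 had 363, against 202 to 280. Psat1, an enzyme of serine synthesis, had 9.03 there, below the Cd36KO range of 10.2 to 20.1. Of the 12, 8 had WT replicates 2, 3 and 4 above all Cd36KO libraries. WT replicate 1 was above the Cd36KO range in Lep, Hoxc8, Aldh1a1, Nrip1 and Mest, below it in Retn and Psat1 and inside it in Hoxc9, which had 0.903 normalized counts there and 0 to 1.15 in Cd36KO. Among the 746 genes with that order of the other 7 libraries and 10 or more normalized counts on average, WT replicate 1 was inside the Cd36KO range in 246, above it in 385 and below it in 115.

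Brown adipocyte markers differed among themselves, both between the groups and in the place of WT replicate 1. They summed to 21105 to 26148 normalized counts in WT and 35422 to 44544 in Cd36KO, with WT replicate 1 at 23147. Ucp1 and Cidea give much of this sum. Of 11 with an adjusted p, 4 were called higher in Cd36KO, Ucp1, Cidea, Cox7a1 and Cox8b, where 1.42% of all tested genes were called higher, and in each WT replicate 1 lay below the Cd36KO range. Without WT replicate 1, 6 were called higher, against 1.06% of all genes. Ucp1, the uncoupling protein, had 5527, 4598, 4235 and 7028 normalized counts in WT replicates 1 to 4, and 12313 in the unnumbered Cd36KO library and 8015, 9449 and 7938 in Cd36KO replicates 2 to 4. Ucp1 in WT replicate 1 thus lay among the other WT libraries. Dio2, the deiodinase that makes active thyroid hormone, did not, with 581 normalized counts there, 176 to 251 in the other WT libraries and 294 to 792 in Cd36KO. Ppargc1a, a coactivator of mitochondrial genes, had 449 there, 212 to 354 in the other WT libraries and 409 to 530 in Cd36KO. Epsti1 in WT replicate 1 was also inside the Cd36KO range, and Zic1 and Lhx8 had log2 fold changes of 0.00 and -0.74.

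Other cell types also varied across these libraries. Skeletal muscle markers summed to 55305 normalized counts in WT replicate 1, the highest of the 8, against 10818, 669 and 11745 in WT replicates 2, 3 and 4 and 49.1 to 7810 in Cd36KO, and 0 of 12 were called by DESeq2 or edgeR. With the muscle markers as a covariate, the log2 fold changes were -2.91 for Nnat and -1.63 for Npr3, which passed the DESeq2 threshold (adjusted p = 0.00772 and 0.000965), -2.93 for Sncg and -1.88 for Slc7a10, which did not (0.129 and 0.309), and -2.88 for Agt, which had no adjusted p. The part of the cell types that follow in the white depot marker differences was not tested. Stromal progenitor markers summed to 1520 to 2078 in WT and 1210 to 1516 in Cd36KO, with 1 of 8 called, Dpt, lower. Macrophage markers ranged from 422 to 766 in WT and 390 to 556 in Cd36KO, with 1 of 6 called, Cd163, lower. Of all tested genes, 1.53% were called lower. Endothelial markers summed to 984 to 1692 and 1138 to 1646 in WT and Cd36KO, and Schwann cell and nerve markers to 467 to 867 and 718 to 1294. Mesothelial markers summed to 27.2 to 104 in WT and 31.7 to 171 in Cd36KO. Of these, Lrrn4 had 10.8 to 49.4 normalized counts in WT and 16.7 to 44.2 in Cd36KO. Krt19 had 52.4 in WT replicate 1, 0 to 1.7 in the other WT libraries and 1.53 to 50.6 in Cd36KO. For Krt18 the values were 40.6, 0 to 2.35 and 0 to 79.4. Msln, Upk3b, Upk1b, Wt1 and Muc16 were at 0 in all libraries. Th and Dbh, which define sympathetic neurons, were at 0 as well.

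**Figure D3:**
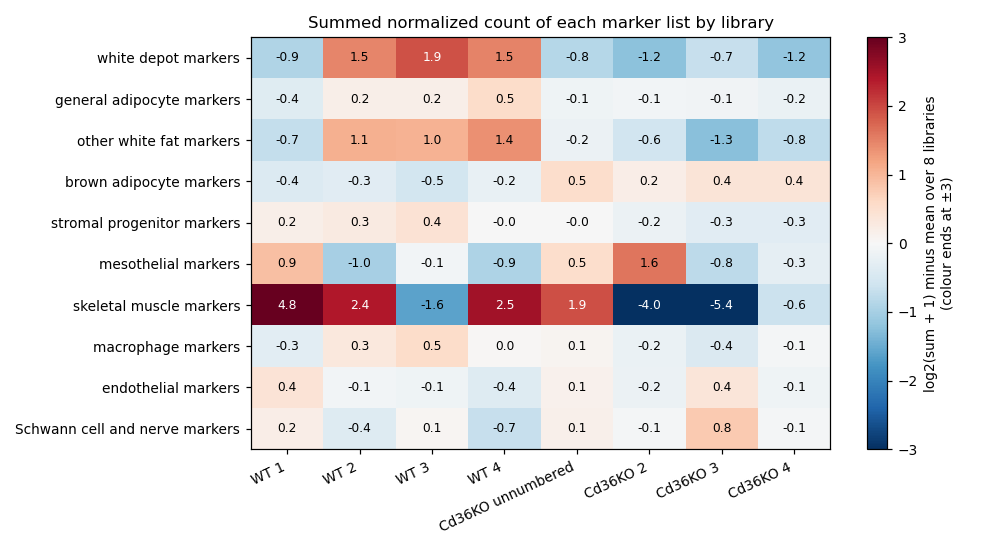
Heat map of the summed normalized counts of the white depot markers and of 9 marker lists (rows) in each library (columns), as log2(sum + 1) minus its mean over the 8 libraries, with red above and blue below the mean and the colour scale ending at 3 in either direction. WT replicate 1 is below the mean for the white depot, other white fat and general adipocyte lists, where the other WT libraries are above it, and has the highest value for skeletal muscle markers, whereas all 4 WT libraries are below the mean for brown adipocyte markers.

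Genes that overlap or flank the white depot markers were examined next. Of 16 such genes with an adjusted p, 0 were called by DESeq2 or edgeR, and 2 in DESeq2 and 1 in edgeR had an unadjusted p under 0.05. Over all genes, 1694 of the 17361 with a p-value in DESeq2 and 1580 of 9793 in edgeR were under 0.05. Blcap, which contains Nnat on the opposite strand, had 354, 444, 447 and 509 normalized counts in WT replicates 1 to 4, and 245 in the unnumbered Cd36KO library and 268, 408 and 295 in Cd36KO replicates 2 to 4 (log2 fold change -0.53, DESeq2 adjusted p = 0.138), and it passed without Cd36KO replicate 3 (-0.70, adjusted p = 0.0242). The strand setting of the counting is not stated, so reads of Blcap and Nnat could be exchanged, which was not tested. The spread of Blcap was far smaller than that of Nnat, and the WT replicate 1 value of Blcap lay inside the Cd36KO range too. Lrp3, which overlaps the end of Slc7a10 on the other strand, had a log2 fold change of 0.37 (0.638), and Mmrn2, 676 bases from Sncg, had 0.21 (0.753).

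Crtac1, a cartilage matrix protein gene 80783 bases from Sfrp5, was the flanking gene that came nearest to the threshold. It had 0, 19.5, 32.9 and 25.7 normalized counts in WT replicates 1 to 4, and 3.34 in the unnumbered Cd36KO library and 4.6, 4.09 and 1.53 in Cd36KO replicates 2 to 4. WT replicates 2, 3 and 4 lay above all Cd36KO libraries, as for Nnat and Sncg and unlike its neighbour Sfrp5, and WT replicate 1 was below the Cd36KO range. The log2 fold change was -2.55 (DESeq2 adjusted p = 0.074), and it was -2.98 and passed without WT replicate 1. Cebpa, an adipogenic transcription factor gene 64457 bases from Slc7a10, had a log2 fold change of -0.13 (0.888).

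The genes whose profile over the 8 libraries was most like that of the markers were found by distance. The mean profile of Nnat, Npr3, Slc7a10, Sncg and Agt, each on the log2(normalized count + 1) scale and centred on its own mean, was compared with 5524 genes that had 50 or more normalized counts on average. This mean profile was -1.02 in WT replicate 1, between 1.49 and 1.86 in the other WT libraries and between -1.19 and -0.50 in Cd36KO, and the median root mean square distance from it was 1.3 log2 units. The nearest was Ccdc80, a secreted matrix protein gene of adipocytes and stromal cells, at 0.30, followed by Abcd2, a peroxisomal fatty acid transporter gene, at 0.33, and Serpina3c, of a multigene family whose members can share reads, at 0.39. Ccdc80 had 363, 1742, 2017 and 1962 normalized counts in WT replicates 1 to 4, and 416 in the unnumbered Cd36KO library and 566, 360 and 326 in Cd36KO replicates 2 to 4. Abcd2 had 84.9, 302, 334 and 371 in WT and 72.6 to 86.9 in Cd36KO, so that WT replicate 1 lay inside a narrow Cd36KO range.

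The other genes among the 10 nearest were Htra3 (0.44), St6galnac5 (0.46), Trf (0.46), Slc43a1 (0.46), Gpt2 (0.49), Car5b (0.50) and Chst1 (0.52). Trf encodes transferrin, Slc43a1 a neutral amino acid transporter, Gpt2 a mitochondrial alanine aminotransferase and Car5b a mitochondrial carbonic anhydrase. WT replicate 1 lay inside the Cd36KO range in 6 of the 10 and below it in Htra3, St6galnac5, Trf and Car5b. These genes were picked by their values in the same libraries, so their differences are given without a test.

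**Figure D4:**
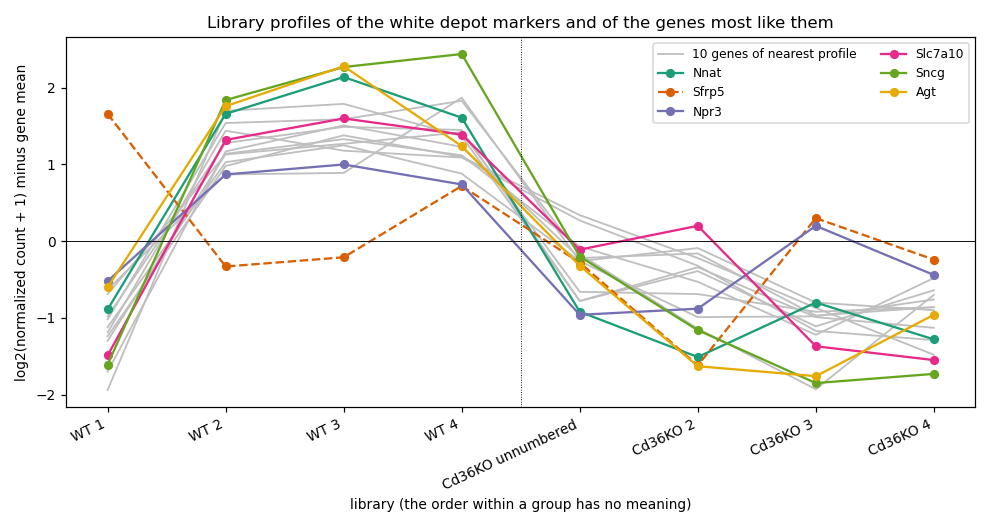
Profiles over the 8 libraries, as log2(normalized count + 1) minus the mean of the gene, of the 6 white depot markers with counts (colours, Sfrp5 dashed) and of the 10 genes with the nearest profiles (grey), where lines only join the values of a gene and the order within a group has no meaning. The coloured lines other than Sfrp5 and the grey lines are below 0 in WT replicate 1, above 0 in WT replicates 2, 3 and 4 and mostly below 0 in Cd36KO.

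None of the motifs searched was found in the promoters of all 7 markers. The RefSeq starts of Npr3, Sncg and Tcf21 differ from those in GENCODE, so their windows depend on the annotation. In the 250 bases before the RefSeq start, on either strand, the TATA box TATAAA was found in 1 of the 7, Agt, and in 12.4% of 32851 promoters. The GC box GGGCGG was found in 3 (Sfrp5, Slc7a10 and Sncg; 32.7% of all promoters), the CCAAT box CCAAT in 1 (Npr3; 33.8%) and the E-box CANNTG in 4 (Sfrp5, Npr3, Sncg and Agt; 66.2%). The C/EBP motif TTGCNNAA (9.56% of all promoters), the nuclear receptor motif AGGTCA (14%) and the Ebf motif, TCCC and GGGA set 2 bases apart (0.779%), were found in 0 of the 7. The motif matches in the sequences printed do not overlap. The 3 promoters printed differed in base composition as well, with a GC content of 54.8% for Nnat, 69.6% for Slc7a10 and 55.6% for Agt against a median of 52.4%, and with 12, 14 and 0 CpG dinucleotides against a median of 6. Genes that moved together thus had a promoter without any CpG and promoters with more than the median.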

How the data were processed

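BAT of 4 WT and 4 Cd36KO mice was profiled by single-end digital mRNA-seq. Per the methods, the authors trimmed reads with bbduk, aligned them to mm10 with STAR and counted them with HTSeq-count, whereas the submitters' processing notes name Trimmomatic, HISAT2 and DESeq2. The deposited values used here are raw counts per gene. The authors also deposited log2 values, and a check showed these to be log2(count/size factor + 1). The annotation release, strand setting and use of molecular identifiers are not given in the sources used here. Intervals and floors therefore cover counting error only.

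Of 31053 identifiers, 30934 matched GENCODE M21 (GRCm38). Promoters came from RefSeq (GRCm38.p6), where all 7 genes matched. Coordinates are 1-based.

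DESeq2 1.42.0 (Wald test, default filtering, genotype as the only term, R 4.3.3) was fitted to all genes, with Benjamini-Hochberg adjustment and a threshold of 0.05. Single genes were also compared by an exact two-sided permutation test of log2(normalized count + 1) over the 70 arrangements (SciPy 1.17.1). Alternatives were edgeR 4.0.16 (quasi-likelihood), TMM factors, a filter of 10 counts in 4 libraries, no independent filtering, muscle markers as a covariate, limma 3.58.1 on the authors' log2 values, a replicate block, a pseudocount of 0.5 and each library left out. An exact test without WT replicate 1 (not reported, since the library was chosen by its values), and a fit of the 6 numbered libraries of replicates 2 to 4 without the block, were chosen after seeing the data. The functions were tested on simulated data first. The markers, the gene lists and the tests were chosen with earlier results of these data known. The text names the 7 markers, called genes of the pathway lists, overlapping and nearest expressed neighbours, and the 10 genes with the nearest profiles. Other genes, including those of the marker lists, were named after their values were seen. Figures were drawn with matplotlib 3.10.9.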

Additional observations from a re-analysis of the deposited data

Results flagged for a closer look

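Of 48 sets of 4 libraries examined for a library that stood apart, 7 held such a library. Chance alone marks about 2.4 of 48 independent sets, but these sets share genes and the low white fat signal of 1 WT library was known when the genes were listed, so the count is no test. The values are on the scale of log2 of the normalized count, or of the sum of normalized counts, + 1. Of the 7, 6 were WT replicate 1. Npr3 was 7.07 in that library, against 8.33 to 8.59 in the other WT libraries. Slc7a10 was 4.81, against 7.62 to 7.91, and Sncg was 4.44, against 7.90 to 8.50. The summed white depot markers were 9.20, against 11.58 to 12.01, a sum that Nnat dominates and that therefore is not independent of the single genes. The summed other white fat markers were 9.56, against 11.33 to 11.67. The summed amino acid transporters, a list without Slc7a10, were 11.64, with the highest other WT library at 12.05. The exception was Cd36KO replicate 2, whose summed renin-angiotensin genes were 8.77, against 8.90 to 8.92 in the other Cd36KO libraries.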

How the results depend on the processing

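The sign of every white depot marker with counts was kept under all alternatives that gave it a value, and the median log2 difference of the 6 ranged from -2.46 to -1.84 over the fits with a single library removed. The number of calls was less stable, and the cause was not tested. For all genes, against 284, edgeR called 14, no independent filtering 171, the muscle covariate 184 and limma 4. Of the 7 markers, against 4, edgeR called 1, the muscle covariate 2 and limma 0. Of all tested genes, edgeR called 10 of 9793 lower, the muscle covariate 109 of 6592 and limma 2 of 13990. In limma, 5 markers had an unadjusted p under 0.05, as did 1848 of all 13990 genes. Under the muscle covariate the log2 fold changes of the 2 genes without a call were -2.93 for Sncg and -2.88 for Agt, against -2.95 and -2.74. Of the pathway lists, against 3, edgeR, no independent filtering and the muscle covariate each called 1 and limma 0. Leaving out a library gave 68 to 501 genes, 1 to 5 markers, 0 to 5 list genes and 0 to 1 flanking genes, against 0. Nnat lost its call in 1 of 16 alternatives (limma, adjusted p = 0.105) and Npr3 in 8 (up to 0.206). Sncg lost its call in 7 (up to 0.176) and Agt in 1 of 8 (limma, 0.14). Slc7a10 gained a call in 3, each of which left out WT replicate 1. Agt was not tested in 2 alternatives and had no adjusted p in 6, and Sfrp5 was not tested in 2.

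Nothing in the labels says whether same-numbered libraries pair the samples. The correlations of their deviations from the group means were -0.127, 0.422 and 0.141 for replicates 2, 3 and 4. So few values cannot decide it. With the replicate block on these 6 libraries, 222 genes were called, with 5 markers, 2 list genes and 1 flanking gene, against 262, 5, 5 and 1 in the same libraries without the block. Of all tested genes, 189 of 11111 were called lower with the block and 214 of 11110 without it. Both fits leave out WT replicate 1, whose low white fat signal was known, so they are no further evidence of a difference.

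At 2679785 to 4097953 counts per library, Tcf21 could not be compared, Sfrp5 rested on 1 to 22 counts and Agt on 3 to 56.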
